A study of Mus musculus with 20 samples.

Results

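The 9 genes described here are used to tell classical from patrolling monocytes and were followed through RNA sequencing of 2 macrophage subsets sorted from fibrotic mouse liver. The 9 genes, Ly6c1, Ly6c2, Ccr2, F13a1, Vcan, Cx3cr1, Nr4a1, Treml4 and Spn, were found by their symbols among 59311 annotated genes. All mice were C57BL/6 mice by the labels, and male C57BL/6J mice by the methods, in which 4 weeks of carbon tetrachloride (CCl4) had caused liver fibrosis. Of 10 such mice, 5 (mice 16 to 20) received Ac-6-FP, a ligand of MR1 that keeps mucosal-associated invariant T (MAIT) cells inactive, and 5 (mice 11 to 15) received its vehicle. From each liver, monocyte-derived macrophages (MoMac, sorted as F4/80 and CD11b positive cells that, by the methods, lacked Ly6G, CD11c and CD3) were separated by surface Ly6C into Ly6Chi and Ly6Clo MoMac, which gave 20 libraries, 5 in each of 4 groups. Livers without CCl4 and blood monocytes were not analysed here, so all groups share the fibrosis. The treatment comparison addresses whether gene expression in these macrophages differs once MAIT cells are kept inactive.

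Classical monocytes carry much Ly6C and the chemokine receptor CCR2, which lets them leave the bone marrow and enter inflamed tissue, where they can become macrophages. Patrolling monocytes carry little Ly6C, survey the vessel wall through the fractalkine receptor CX3CR1, and depend on the nuclear receptor NR4A1 for their development and survival. Macrophages that descend from classical monocytes in the liver lose Ly6C as they mature, so a Ly6C-low cell in a fibrotic liver need not be a patrolling monocyte.

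Values are normalized counts, that is, reads counted on each gene divided by 1 size factor per library. They are not divided by gene length, so levels are compared between libraries and not between genes. Differences are on the scale of log2(normalized count + 1), which understates the change of low genes, and are called at an adjusted p (limma, Benjamini-Hochberg over 17248 genes with a mean of at least 10 in 1 group) under 0.05. Between 5693049 and 18682437 reads were counted on genes per library. The Ly6Clo vehicle library of mouse 13 stood apart, with 5693049 reads and 5343 genes above 0, against 9017 to 15766 genes in the other 19. Results are therefore also given without that mouse. A value of 0 allows up to 3 reads, which is at most 6.26 normalized counts in mouse 13 and covers counting error only.

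Ly6c1 and Ly6c2, the genes of the Ly6C antigen, are related genes that lie close together on chromosome 15. In the deposited annotation (mm10), Ly6c1 lies at chr15:75044027-75048837 and Ly6c2 at chr15:75108158-75111971. Of the 75-base windows of the Ly6c1 transcripts, 19.0% also occur in other genes and 14.7% in Ly6c2, while 9.5% of the Ly6c2 windows occur in Ly6c1. Reads from these windows could be split between the genes by the counting, so Ly6c1 values in particular are uncertain. The 250 bases before each start, from RefSeq (GRCm38.p6, minus strand, chr15:75048838-75049087 and chr15:75111972-75112221), are shown because these genes moved together in every comparison of the subsets. Capitals mark bases that differ or lack a partner within the aligned stretch, in which 164 of 228 columns (71.9%) were identical and 52 were substituted:
Ly6c1: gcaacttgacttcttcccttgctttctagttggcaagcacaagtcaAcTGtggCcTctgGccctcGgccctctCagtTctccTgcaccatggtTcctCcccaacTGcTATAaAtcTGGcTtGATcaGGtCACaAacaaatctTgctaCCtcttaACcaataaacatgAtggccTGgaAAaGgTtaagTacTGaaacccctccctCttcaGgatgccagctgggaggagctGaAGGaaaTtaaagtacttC
Ly6c2: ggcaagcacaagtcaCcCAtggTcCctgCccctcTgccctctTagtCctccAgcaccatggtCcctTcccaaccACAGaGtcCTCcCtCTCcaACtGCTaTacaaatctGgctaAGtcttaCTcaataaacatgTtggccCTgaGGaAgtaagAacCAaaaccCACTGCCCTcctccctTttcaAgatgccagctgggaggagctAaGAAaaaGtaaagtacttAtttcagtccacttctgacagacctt

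Nr4a1, which lies at chr15:101266846-101274795 on the same chromosome, encodes an orphan nuclear receptor and is also an immediate early gene, switched on within minutes by many stimuli. The 250 bases before its start (RefSeq, GRCm38.p6, plus strand, chr15:101266596-101266845) are shown because the treatment comparison below turns on this gene. The half-site TGACG, to which factors of the CREB and ATF family bind, was searched on both strands. It was found 4 times before Nr4a1, in each case as CGTCA on the strand printed (capitals). It occurs before 17.77% of 32851 promoters of the same length and before none of the other 8 genes. The full site TGACGTCA, in 1.55% of promoters, and the NR4A response element AAAGGTCA, in 1.34%, were in none of the 9:
Nr4a1: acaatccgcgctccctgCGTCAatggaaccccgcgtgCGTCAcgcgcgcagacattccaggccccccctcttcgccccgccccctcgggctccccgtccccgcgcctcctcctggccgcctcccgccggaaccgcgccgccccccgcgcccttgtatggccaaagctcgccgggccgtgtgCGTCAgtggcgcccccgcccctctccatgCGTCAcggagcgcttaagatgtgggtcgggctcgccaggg

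**Figure D1:**
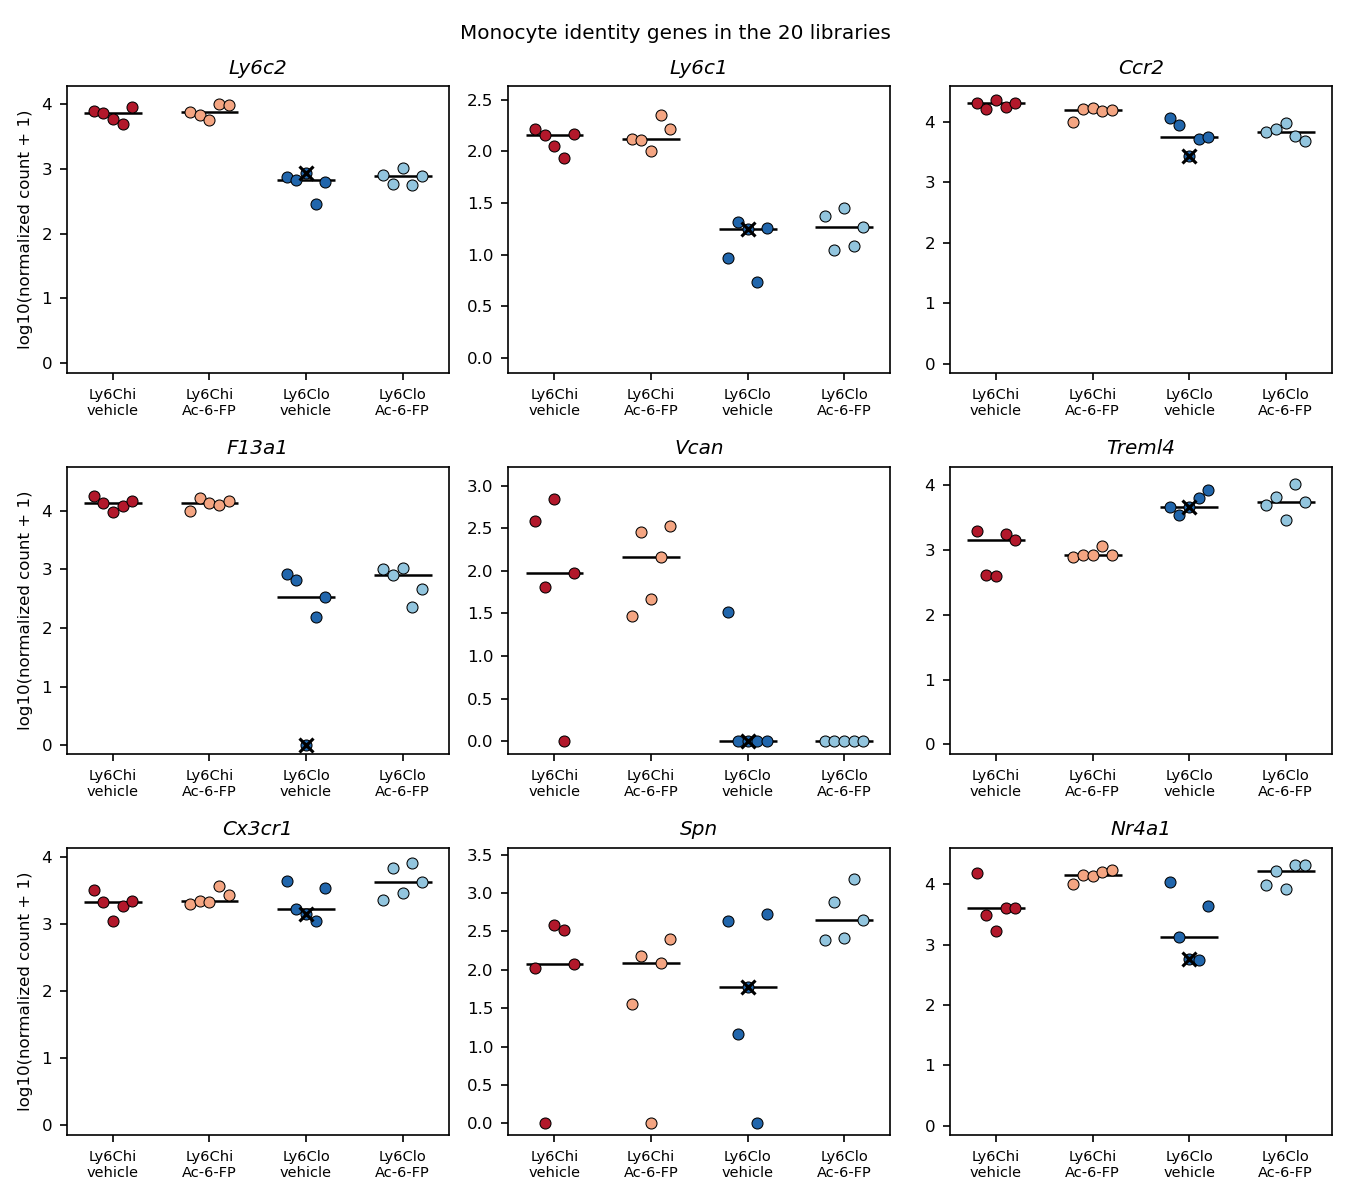
Each point is 1 library and each horizontal line the median of 5 libraries, as log10(normalized count + 1), for the 4 groups of subset and treatment; the cross marks the Ly6Clo library of mouse 13. Ly6c2, Ly6c1 and F13a1 sit higher in all Ly6Chi libraries and Treml4 higher in all Ly6Clo libraries, while the Nr4a1 libraries overlap between subsets and between treatments, with mouse 11 the highest of the vehicle mice.

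Expression of the Ly6C genes was read first, because Ly6C was the antigen of the sort. Ly6c2 was listed at 7607, 7218, 5908, 4930.2 and 9047 normalized counts in the Ly6Chi libraries of vehicle mice 11 to 15, and at 7589, 6649, 5641, 10012 and 9428 in those of Ac-6-FP mice 16 to 20. In the Ly6Clo libraries of the same mice it was listed at 753, 670.3, 858, 284 and 622 with vehicle and at 784, 575, 1014, 552 and 767 with Ac-6-FP. The subsets did not overlap, and Ly6c2 was 5.57 to 18.1 times as high in the Ly6Chi as in the Ly6Clo library of the same mouse. Ly6c1 ranged from 86.0 to 226 (median 138) in Ly6Chi and from 4.45 to 27.5 (median 16.9) in Ly6Clo libraries, again without overlap. It made up 1.59% to 2.21% of the summed Ly6c1 and Ly6c2 values in Ly6Chi and 1.09% to 2.87% in Ly6Clo libraries. These values check the gate and are no finding of their own. They also show that Ly6c2 was still well above the floor in every Ly6Clo library.

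Of the 9 genes, 5 were higher in Ly6Chi MoMac (Ly6c1, Ly6c2, Ccr2, F13a1 and Vcan), where 1.81% of all genes tested were called in that direction, and 1 was higher in Ly6Clo MoMac (Treml4), where 3.41% were. Cx3cr1, Nr4a1 and Spn did not pass the test. Apart from the genes of the sort antigen, 3 of 7 were thus higher in Ly6Chi and 1 of 7 in Ly6Clo MoMac. Without mouse 13 the same test gave 5 and 1 again. Without that mouse, 4 were higher in Ly6Chi MoMac with edgeR (Vcan was lost), and 2 with the number of genes detected in each library as a covariate (Ccr2, Ly6c1 and Vcan were lost). Libraries of the subsets did not overlap for Ly6c1, Ly6c2 and F13a1 (higher in Ly6Chi, 0.429% of all genes) and for Treml4 (higher in Ly6Clo, 0.974% of all genes).

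**Figure D2:**
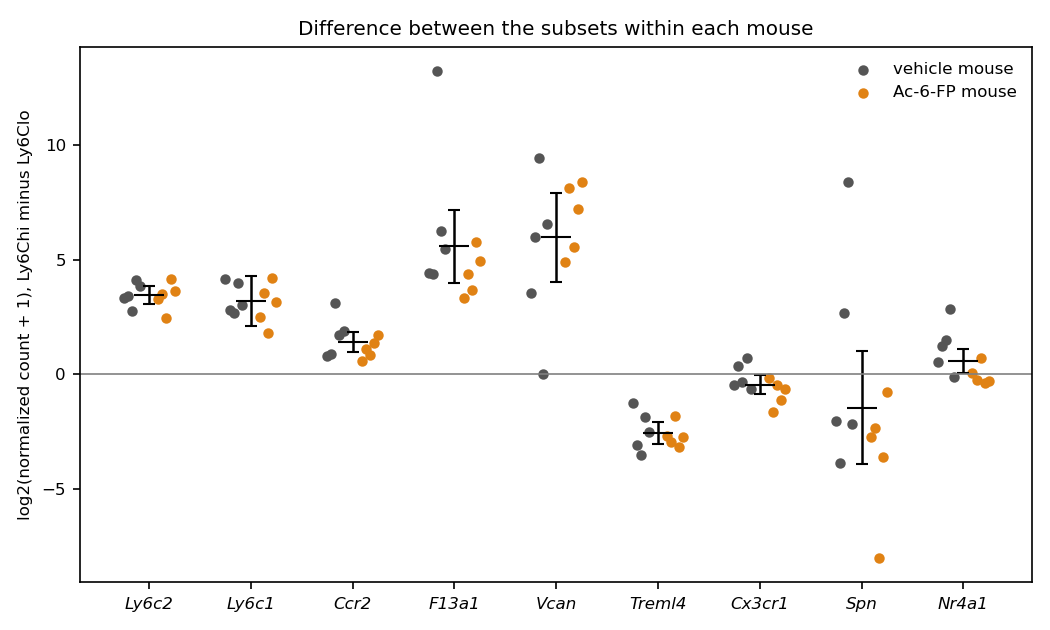
Each point is the difference Ly6Chi minus Ly6Clo of log2(normalized count + 1) in 1 mouse, for vehicle (grey) and Ac-6-FP (orange) mice; the bar is the mean over both treatments with its 95% interval. Ly6c2, Ly6c1, Ccr2 and F13a1 are above 0 and Treml4 below 0 in 10 of 10 mice, and the point of F13a1 near 13 is mouse 13, whose Ly6Clo library lists it at 0.

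Among the classical genes, Ccr2 (chr9:124101949-124113557) encodes the receptor for the chemokine CCL2. Its Ly6Chi values were 20489.7, 15865, 22961, 17179 and 20472 with vehicle and 9986, 16291, 16882, 14865 and 15359 with Ac-6-FP. The Ly6Clo values of the same mice were 11640.5, 8709.7, 2650.5, 5225 and 5462 with vehicle and 6756, 7507, 9402, 5727 and 4693 with Ac-6-FP. Ccr2 was thus abundant in both subsets. It was higher in the Ly6Chi library of each mouse, although the lowest Ly6Chi value (mouse 16) lay below the highest Ly6Clo value (mouse 11). The log2 difference was 1.40 (standard error 0.20, adjusted p = 0.00118, n = 10 mice), the smallest of the 6 called, and 1.22 without mouse 13 (adjusted p = 0.000632). With genes detected as a covariate without mouse 13 it was 1.09 and not called (adjusted p = 0.0762), the one loss of Ccr2 in 23 alternatives.

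F13a1 (chr13:36867178-37050244) encodes the A chain of coagulation factor XIII, which cross-links fibrin. It was listed at 18118, 13700.4, 9632, 11894 and 14653 in Ly6Chi vehicle libraries and at 10111, 16716, 13661, 12546 and 14650.4 in Ly6Chi Ac-6-FP libraries. In Ly6Clo libraries the values were 849, 665, 0, 154 and 333 with vehicle and 1016, 803, 1064, 226 and 472 with Ac-6-FP. Even the highest Ly6Clo value lay far below the lowest Ly6Chi value. In the 9 mice with a value above 0 in both libraries, F13a1 was 9.95 to 77.3 times as high in Ly6Chi MoMac. The log2 difference was 5.58 (standard error 0.73, adjusted p = 0.000612), and without mouse 13, whose Ly6Clo library lists F13a1 at 0, it was 4.77 (adjusted p = 4.8e-06). A row without a symbol overlaps F13a1 in the annotation, with values of at most 121 normalized counts.

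Vcan (chr13:89655310-89742512), the gene of the matrix proteoglycan versican, was low. Its Ly6Chi values were 388, 63.2, 693, 0 and 94.0 with vehicle and 28.7, 283, 46.3, 146 and 339 with Ac-6-FP. In Ly6Clo MoMac it was listed at 32.2 in mouse 11 and at 0 in the other 9 libraries. It was therefore higher in Ly6Chi MoMac in 9 of 10 mice, and in mouse 14 both libraries were at 0. With Ac-6-FP, the mean of 169 in Ly6Chi MoMac was at least 47.0-fold higher than the floor of 3 reads in any of the Ly6Clo libraries (3.59 normalized counts). The fitted log2 difference of 5.98 (standard error 0.89, adjusted p = 0.00164) depends on the pseudocount, and without mouse 13 it was 5.44 (adjusted p = 0.00311). With edgeR (quasi-likelihood test) without mouse 15 or without mouse 13, Vcan was not called (adjusted p = 0.105 and 0.0672), nor was it with genes detected as a covariate without mouse 13 (adjusted p = 0.232). It was called in the other 20 of 23 alternatives. Both rows without a symbol that overlap Vcan reached at most 154 normalized counts. The row at chr13:89740511-89743011 had means of 62.6 and 43.3 in Ly6Chi libraries (vehicle and Ac-6-FP). In Ly6Clo libraries its means were 12.2 and 15.7, above those of Vcan there (6.44 and 0). The values at 0 and the fold of Vcan thus hold for its own row only, and whether the other counts belong to Vcan was not tested.

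Other genes known from classical monocytes were read beside them. Of 15 such genes, 9 were higher in Ly6Chi MoMac (1.81% of all genes) and none was higher in Ly6Clo MoMac, with a median log2 difference of 1.14 (all genes tested: -0.03). The list was chosen with earlier results of these data known, so its counts are a description only. The count of 9 fell to 4 without a trend in the variance prior and stood at 6 with genes detected as a covariate without mouse 13. Chil3, a chitinase-like secreted protein, differed by 3.48 (standard error 0.21, adjusted p = 1.66e-06). Mgst1, a glutathione transferase, differed by 2.74 (adjusted p = 2.12e-07) and Fn1, the gene of fibronectin, by 1.98 (adjusted p = 0.0140). Ms4a4c differed by 1.39 (adjusted p = 1.58e-05). Only Klf4, a transcription factor, had a value below 0, with a log2 difference of -0.66 that did not pass the test (adjusted p = 0.461). Of 7 tested ligands and signalling partners, both called genes were chemokines that bind CCR2 and were higher in Ly6Chi MoMac. Ccl2 differed by 3.76 (adjusted p = 0.0167) and Ccl7 by 4.35 (adjusted p = 0.0184), although Ccl7 did not exceed 269 normalized counts. Of 6 tested members of the wider Ly6 family, Ly6e was higher in Ly6Chi MoMac (0.60), and Ly6d (-4.12) and Ly6i (-2.02) were higher in Ly6Clo MoMac, with adjusted p-values of 0.000612, 0.0345 and 0.0135.

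**Figure D3:**
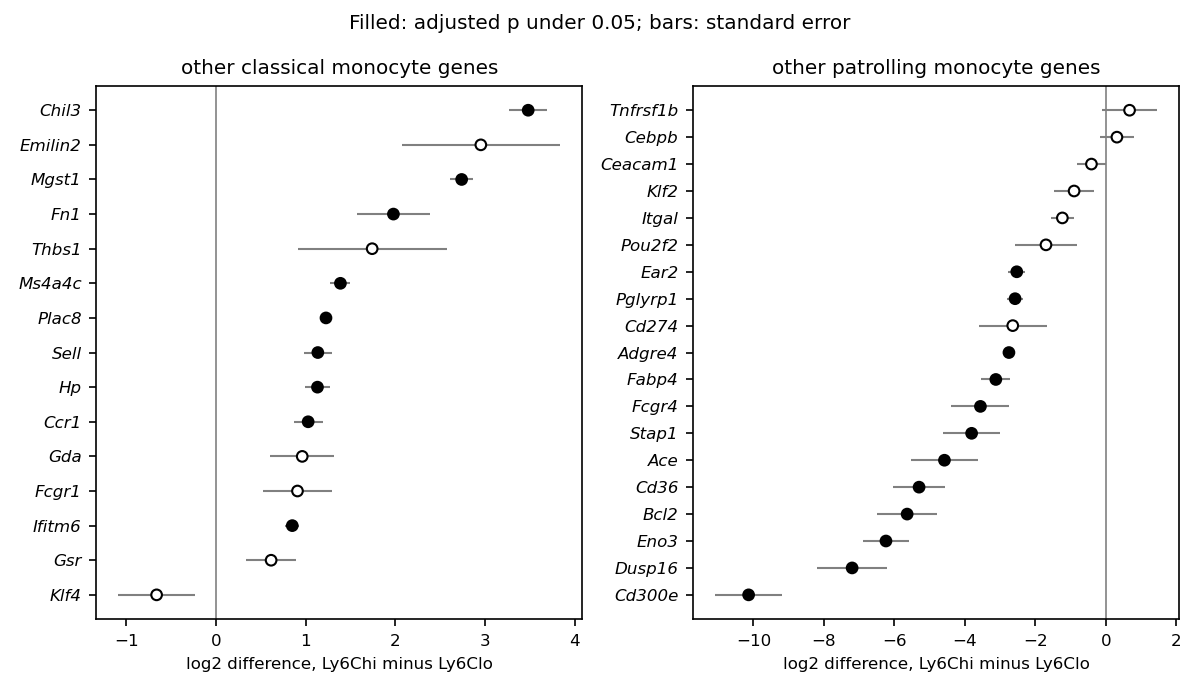
Log2 differences Ly6Chi minus Ly6Clo (n = 10 mice, bars are standard errors) of 15 other classical and 19 other patrolling monocyte genes; filled points have an adjusted p under 0.05. All 9 filled points of the classical list lie above 0 and all 12 of the patrolling list lie below 0. Both lists were chosen with earlier results of these data known.

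Treml4 (chr17:48264292-48275360), a receptor of the TREM family that marks patrolling monocytes in the blood, was the one identity gene called higher in Ly6Clo MoMac. Its Ly6Clo values were 4568, 3509.9, 4575, 6468 and 8432 with vehicle and 5025, 6549.55, 2929.9, 10465 and 5615 with Ac-6-FP. In Ly6Chi libraries it was listed at 1938, 406, 394, 1778 and 1454 with vehicle and at 777, 836, 827, 1170.5 and 838 with Ac-6-FP. The subsets did not overlap, but Treml4 was far above the floor in each Ly6Chi library. It was 2.36 to 11.6 times as high in the Ly6Clo library of the same mouse. The log2 difference was -2.57 (standard error 0.22, adjusted p = 3e-05, lower in Ly6Chi MoMac in 10 of 10 mice), and -2.43 without mouse 13 (adjusted p = 5.44e-05).

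Cx3cr1 (chr9:120048683-120068297), the fractalkine receptor, did not separate the subsets. Its Ly6Chi values were 3157, 2109.8, 1108, 1829 and 2188 with vehicle and 1976, 2163, 2093, 3699.6 and 2641 with Ac-6-FP. Its Ly6Clo values were 4393, 1633, 1409, 1111 and 3459 with vehicle and 2242, 6824, 2913, 8139.65 and 4168 with Ac-6-FP. The ranges overlapped widely, and 8 of 10 mice were higher in Ly6Clo MoMac, among them all 5 Ac-6-FP mice. The log2 difference was -0.45 (95% interval -0.86 to -0.05, adjusted p = 0.233), and -0.42 without mouse 13 (adjusted p = 0.262).

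Spn (chr7:127132232-127137823) encodes CD43, which is high on patrolling monocytes and is carried by most other leukocytes. It ranged from 0 to 380.3 (median 121) in Ly6Chi and from 0 to 1516 (median 348) in Ly6Clo libraries, with 2 and 1 libraries at 0. In 8 of 10 mice it was higher in Ly6Clo MoMac, but the log2 difference of -1.45 had a 95% interval of -3.93 to 1.02 (adjusted p = 0.540), and it was -1.71 without mouse 13. The gene cannot be read alone here. A row without a symbol at chr7:127132016-127137824 covers nearly the same bases and holds more of the counts, with means of 628 and 671 in Ly6Chi libraries (vehicle and Ac-6-FP) and 2431 and 3158 in Ly6Clo libraries.

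Of 19 other genes known from patrolling monocytes, 12 were higher in Ly6Clo (3.41% of all genes) and none was higher in Ly6Chi MoMac, with a median log2 difference of -2.75. This list too was chosen with earlier results of these data known. The largest differences were those of Cd300e (-10.1, standard error 0.95, adjusted p = 4.94e-05), an activating receptor, and Dusp16 (-7.20, adjusted p = 0.000908), a phosphatase of the MAP kinases. Eno3, an enolase, differed by -6.24 (adjusted p = 0.000123) and Bcl2, which protects cells from apoptosis, by -5.64 (adjusted p = 0.00171). Over the alternatives, 8 to 14 of the 19 were called in the same direction, with 14 without mouse 13, and 8 both with edgeR without mouse 15 and with genes detected as a covariate without mouse 13.

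Ly6Clo libraries also held markers of other cells. Of 7 markers of natural killer cells, 6 were called higher in Ly6Clo MoMac, and their summed level ranged from 28729.5 to 61937 normalized counts there, against at most 280.4 in Ly6Chi libraries. Neutrophil markers (4 of 9 called), although Ly6G-positive cells were gated out by the methods, summed to between 10520.2 and 132785 in Ly6Clo and between 3444 and 7297 in Ly6Chi libraries. Retnlg was the largest part of this sum in Ly6Clo libraries (means 34529 with vehicle and 47250 with Ac-6-FP), where Ly6g had means of 39.0 and 35.9. Of the 9, 2 had a log2 difference above 0, that is, towards Ly6Chi MoMac. Dendritic cell markers (3 of 7 called) summed to between 6835 and 21829 against at most 535, and eosinophil markers (3 of 3 tested called) to between 0 and 19721 against at most 32.7, with Epx at 0 in each library. The largest part of the dendritic cell sum in Ly6Clo libraries was Cd209a (means 14604.9 with vehicle and 9135.5 with Ac-6-FP). Itgax, the gene of CD11c, which the gate was also meant to exclude, was at 0 in all Ly6Chi libraries and reached 3302 in Ly6Clo libraries. The part of these cells in the differences between the subsets was not tested. This holds for the genes called higher in Ly6Chi MoMac as well as for Treml4, Cx3cr1, Spn and the patrolling genes. Of the genes of the CD3 complex, Cd3e was at 0 in all Ly6Chi libraries and reached 11.1 in Ly6Clo libraries. Cd3d went the other way by its highest value, with 139.7 in Ly6Chi and 119.5 in Ly6Clo libraries. Cd3g reached 38.7 in Ly6Chi and 226 in Ly6Clo libraries, and Cd247, which natural killer cells also express, 3.7 and 1609. Of the markers of T cells, B cells, Kupffer cells, endothelial cells and hepatocytes, 2 of 5, 1 of 5, 1 of 6, 1 of 5 and 1 of 5 tested were called, each higher in Ly6Clo MoMac. Platelet (4 tested) and stellate cell markers (2 tested) gave 0 calls in limma, also at an unadjusted p under 0.05. Of 7 macrophage markers analysed, only Cd14 was called (0.75, higher in Ly6Chi MoMac). In bulk libraries such as these, fewer cells of a type and less RNA per cell cannot be told apart.

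Nr4a1 did not separate the subsets either. Its values in Ly6Chi libraries were 15444, 3131, 1666, 4052 and 3986 with vehicle and 10019.6, 14002, 13717, 15820.3 and 16963 with Ac-6-FP. In Ly6Clo libraries they were 10693, 1342, 584, 554 and 4319.6 with vehicle and 9713, 16433, 8301, 20349 and 20924 with Ac-6-FP. It was higher in Ly6Chi MoMac in 6 mice and in Ly6Clo MoMac in 4, and the log2 difference was 0.59 (95% interval 0.07 to 1.10, adjusted p = 0.220), or 0.55 without mouse 13. Within vehicle mice its 95% interval was 0.47 to 1.93 (adjusted p = 0.106) and within Ac-6-FP mice -0.75 to 0.70 (adjusted p = 1.0). Of the 10 other immediate early genes analysed, Egr2 was the one called, at -6.90 (standard error 1.10, adjusted p = 0.00258, higher in Ly6Clo MoMac), with a Ly6Chi value of at most 180.5.

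The subsets were then compared within each treatment. In vehicle mice, Ly6c1, Ly6c2, Ccr2 and F13a1 were called higher in Ly6Chi MoMac (0.806% of all genes) and Treml4 higher in Ly6Clo MoMac (1.54%). Of these, Ly6c1 was called in 14 of 22 alternatives (adjusted p up to 0.336), Ccr2 in 19 of 23 (up to 0.274), F13a1 and Treml4 in 22 of 23, and Ly6c2 in 23 of 23. In Ac-6-FP mice, Ly6c1, Ly6c2, F13a1 and Vcan were called higher in Ly6Chi MoMac (0.754%) and Treml4 again higher in Ly6Clo MoMac (2.19%). In these Ac-6-FP mice, Ly6c2 and Treml4 were called in all 23 alternatives, but Vcan in 16 of 23, Ly6c1 in 13 of 22 and F13a1 in 10 of 23 (adjusted p up to 0.188, 0.259 and 0.200). Ccr2 differed by 1.68 in vehicle mice (adjusted p = 0.00746) and by 1.12 in Ac-6-FP mice (adjusted p = 0.0629). Vcan differed by 5.11 in vehicle mice (adjusted p = 0.0677) and by 6.84 in Ac-6-FP mice (adjusted p = 0.0122). These calls do not show that the treatments differ. When the change with Ac-6-FP was compared between the subsets directly, 0 of the 9 genes, and 0% of all genes, were called (limma), 1 of the 9, Nr4a1, had an unadjusted p under 0.05, and edgeR also called 0 of 9. In that limma comparison 840 of all 17248 genes had an unadjusted p under 0.05, so the count of 1 is not read as a result.

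Next, the Ac-6-FP mice were set against the vehicle mice, separately for Ly6Chi and Ly6Clo libraries (5 mice each). In Ly6Chi MoMac 0 of the 9 genes were called, where 0.0754% of all genes were, and 2 (Nr4a1 and Ccr2) had an unadjusted p under 0.05 (limma, as for the counts that follow). In Ly6Clo MoMac 0 of 9 were called, where 0.0522% of all genes were, and 1 (Nr4a1) had an unadjusted p under 0.05. Of all 17248 genes, 1506 in Ly6Chi and 1605 in Ly6Clo MoMac had an unadjusted p under 0.05, so these counts, and those of the lists below, are not read as results. EdgeR also called 0 of 9 in either subset. No gene of the 9 had Ac-6-FP and vehicle libraries that did not overlap, where 1.35% of all genes did not overlap in Ly6Chi and 1.5% in Ly6Clo MoMac. The vehicle libraries had fewer genes above 0 (medians 9749 and 10379 in Ly6Chi and Ly6Clo) than the Ac-6-FP libraries (13622 and 14084). On the log2 scale the median of all genes tested was shifted, by 0.35 in Ly6Chi and by 0.91 in Ly6Clo MoMac, and the part of this shift in the differences below was not tested.

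**Figure D4:**
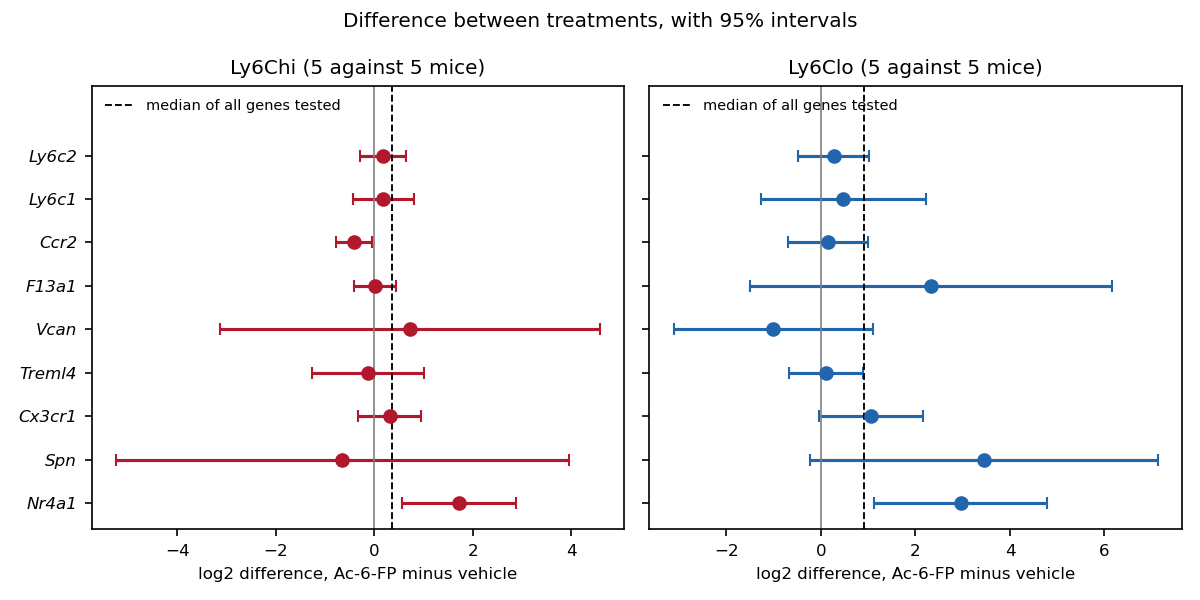
Log2 differences Ac-6-FP minus vehicle with 95% intervals in each subset (5 against 5 mice); the dashed line is the median of all genes tested (0.35 in Ly6Chi and 0.91 in Ly6Clo MoMac). The interval of Nr4a1 lies above this median in both subsets, that of Ccr2 below it in Ly6Chi and that of Treml4 below it in Ly6Clo MoMac, and 0 of the 9 genes passed the test after adjustment in either subset. With quantile normalization the median was -0.015 in Ly6Chi and 0.021 in Ly6Clo MoMac.

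Among the classical genes in Ly6Chi MoMac, Ly6c2 differed by 0.18 (95% interval -0.29 to 0.65) and F13a1 by 0.01 (-0.42 to 0.43). Ccr2 was lower with Ac-6-FP by value (log2 difference -0.41, interval -0.78 to -0.04, adjusted p = 0.543), which is -0.76 relative to the median of all genes. That median depends on the setting, and was -0.015 with quantile normalization. Over 22 alternatives the Ccr2 difference ranged from -0.48 to -0.28 and was called in 0. The highest Ac-6-FP values of Ccr2 (mice 17 and 18) still exceeded the lowest vehicle value (mouse 12). Vcan differed by 0.72, with an interval from -3.14 to 4.58 that excludes little. In Ly6Clo MoMac, Ccr2 differed by 0.15 (interval -0.70 to 1.00) and Ly6c2 by 0.27 (-0.48 to 1.01). F13a1 differed there by 2.33 with mouse 13 and by 0.59 without it (adjusted p = 0.613 and 0.720).

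Patrolling genes gave no call either. Treml4 differed by -0.12 (interval -1.26 to 1.01) in Ly6Chi and by 0.10 (-0.68 to 0.88) in Ly6Clo MoMac. Cx3cr1 differed by 0.31 (-0.32 to 0.95) in Ly6Chi and by 1.06 (-0.04 to 2.15, adjusted p = 0.542) in Ly6Clo MoMac, where the median of all genes was 0.91. Without mouse 13 these values were 0.92 (adjusted p = 0.668) and 0.35. Spn differed by -0.65 (-5.25 to 3.95) in Ly6Chi and by 3.45 (-0.23 to 7.13, adjusted p = 0.546) in Ly6Clo MoMac. Of the 15 other classical and 19 other patrolling genes, 0 were called in either subset (limma and edgeR). In limma 2 and 1 of them had an unadjusted p under 0.05 in Ly6Chi and 1 and 3 in Ly6Clo MoMac. Their medians were 0.16 and 0.31 in Ly6Chi and 0.30 and 0.26 in Ly6Clo MoMac, below the median of all genes in this fit but above it in all 4 cases under quantile normalization.

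Nr4a1 was the one gene of the 9 with an unadjusted p under 0.05 in both subsets. With the values given above, its mean was 5656 ± 5556 normalized counts (SD, n = 5) with vehicle and 14104 ± 2644 (SD, n = 5) with Ac-6-FP in Ly6Chi MoMac. In Ly6Clo MoMac it was 3499 ± 4308 (SD, n = 5) with vehicle and 15144 ± 5884 (SD, n = 5) with Ac-6-FP. Mouse 11 lay within the range of the Ac-6-FP mice in both subsets, and the other 4 vehicle mice lay below all 5 Ac-6-FP mice in both. The log2 differences were 1.73 (interval 0.57 to 2.88, adjusted p = 0.424) in Ly6Chi and 2.95 (1.13 to 4.78, adjusted p = 0.496) in Ly6Clo MoMac, or 1.37 and 2.04 relative to the median of all genes. Without mouse 11 Nr4a1 was called in Ly6Chi MoMac (2.20, adjusted p = 0.0184, where 0.771% of all genes were called) and missed the threshold in Ly6Clo MoMac (3.59, adjusted p = 0.0653). Of all genes, 0.597% were called there without mouse 11. Without mouse 13 Nr4a1 was not called in Ly6Chi (1.39, adjusted p = 0.598, 0% of all genes called) or Ly6Clo MoMac (2.54, adjusted p = 0.640, 0.0116% of all genes called). Over all alternatives its adjusted p ranged from 0.0184 to 1.0 in Ly6Chi and from 0.0653 to 0.949 in Ly6Clo MoMac. Markers of other cells were also higher by value with Ac-6-FP in Ly6Clo MoMac. Their median log2 differences there were 3.71 for Kupffer cells (6 tested), 2.96 for neutrophils (9), 2.57 for endothelial cells (5), 2.45 for eosinophils (3), 2.27 for T cells (5), 2.15 for platelets (4), 2.00 for B cells (5) and 1.61 for dendritic cells (7), beside 0.91 for all genes. Those of stellate cells (0.53), natural killer cells (0.21) and hepatocytes (0.12) lay below it. Of the 6 Kupffer cell markers tested, 5 had a log2 difference above 0 and 1 below 0. Clec4f was lower by mean with Ac-6-FP (19.0 against 44.5), as was Timd4 (1.3 against 9.9), which was too low to be tested. Medians of these lists are not given without mouse 13, where that of all genes was 0.35. None of the tested markers in these lists passed the test (limma), at most 1 per list had an unadjusted p under 0.05, and their part in the Nr4a1 difference was not tested. The direct comparison of the Nr4a1 change between the subsets gave -1.23 (interval -2.26 to -0.20, adjusted p = 0.830).

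**Figure D5:**
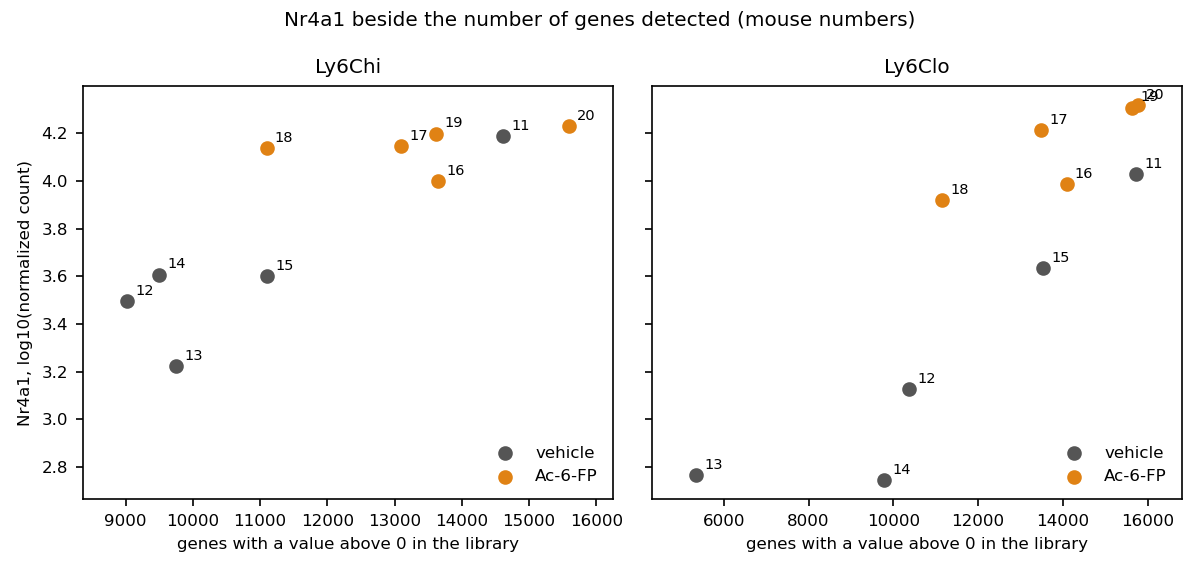
Nr4a1 as log10(normalized count) against how many genes were detected (above 0), 1 point per library with its mouse number, for vehicle (grey) and Ac-6-FP (orange) mice. Mouse 11, the vehicle mouse with the highest Nr4a1 value in both subsets, also has the most genes of the vehicle libraries (14606 and 15723).

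Libraries also differed in how many genes were detected. Mouse 11 held 14606 genes above 0 in its Ly6Chi and 15723 in its Ly6Clo library, the most of each vehicle group, while the other vehicle libraries held 9017 to 11097 (Ly6Chi) and 5343 to 13527 (Ly6Clo). With the number of genes as a covariate, the log2 difference of Nr4a1 was 0.88 in Ly6Chi (adjusted p = 1.0) and 1.73 in Ly6Clo MoMac (adjusted p = 0.949). Among Ly6Chi libraries with a like number of genes, mouse 15 (vehicle, 11097 genes) held 3986 and mouse 18 (Ac-6-FP, 11096 genes) 13717 normalized counts of Nr4a1. Mouse 11 (vehicle, 14606 genes) held 15444. The Ac-6-FP libraries nearest to it held 10019.6 (mouse 16, 13652 genes), 15820.3 (mouse 19, 13622 genes) and 16963 (mouse 20, 15587 genes). These libraries were chosen after their values were seen and carry no test, and the part of the number of genes in the Nr4a1 difference was not tested. The 10 other immediate early genes analysed gave 0 calls in either subset (limma and edgeR), and 1 and 2 had an unadjusted p under 0.05 in limma. In each subset 9 of the 10 had a log2 difference above 0, with a median of 0.73 in Ly6Chi and 1.24 in Ly6Clo MoMac, or 0.56 and 0.67 without mouse 13, beside medians of all genes of 0.35 and 0.91, or 0.29 and 0.35 without mouse 13. With genes detected as a covariate the median of the list was -0.20 in Ly6Chi and 0.28 in Ly6Clo MoMac, so that its direction in Ly6Chi MoMac depends on that setting. In Ly6Chi MoMac their summed level lay between 22196 and 60813 in vehicle mice and between 53118 and 66525 in Ac-6-FP mice. In Ly6Clo MoMac it lay between 14017 and 70472 in vehicle mice and between 37741 and 73001.5 in Ac-6-FP mice, so that the groups overlapped in both subsets.

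Finally, the genes whose pattern was most like that of each identity gene were read over 19 libraries (without the Ly6Clo library of mouse 13), among 6961 genes with a mean of at least 100 in 1 group. The libraries share subsets, depth and mice, so Spearman's rho is given as a description only. Ly6c1 and Ly6c2 were each other's nearest gene (rho = 0.974). The nearest gene to Ccr2 was Anxa1 (0.953), to F13a1 Emb (0.914) and to Vcan Atp6v1a (0.881). Treml4 was most like Adgre4 (0.954), a gene of the patrolling list, followed by Tcf7l2 (0.930). For Cx3cr1 the nearest was Csf1r (0.944), the gene of the receptor for macrophage colony-stimulating factor. Nr4a1 was most like Bin2 (0.947), followed by Irf5 (0.928) and Dok3 (0.926), and Spn was most like Cblb (0.844).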

How the data were processed

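RNA was sequenced from 20 libraries of sorted cells (5 per group), per the labels. The authors used a low-input kit, 75-base reads, STAR 2.4.0 on mm10, and counts on the constitutive regions of FAST DB genes divided by DESeq2 size factors. The deposited values are signal values (normalized counts). They are whole multiples of 1 step per library for 99.66% of values (tolerance 0.006), from which reads were recovered. Libraries were paired by the mouse number in the labels, as in the paired test of the methods (median residual correlation 0.0338 within and -0.0032 between mice). Limma 3.58.1 in R 4.3.3 was fitted to log2(normalized count + 1) of 17248 genes, on within-mouse differences between subsets and on each subset between treatments, with a trended variance prior, tested on simulated data. EdgeR 4.0.16 on recovered reads was an alternative. The 9 genes and all lists were chosen with earlier results of these data known. All 9 are named, with up to 4 called genes per list and the 3 nearest genes by Spearman's rho. Jun, Junb, Lyz2 and Serpina1c were not analysed here. Sequences were aligned with Biopython 1.88.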

Additional observations from a re-analysis of the deposited data

Results flagged for a closer look

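A single library stood far from the other 4 of its group in 3 of the 35 groups of 5 that had any spread, by Dixon's criterion (0.71 for 5 values). For normally distributed values, chance alone flags about 1 in 20 groups. The criterion was applied to normalized counts without a log, and whether they follow that distribution was not tested. Vcan was listed at 32.2 normalized counts in the Ly6Clo vehicle library of mouse 11 and at 0 in the other 4, where any value above 0 meets the criterion and the rate of chance flags does not apply. Nr4a1 reached 15444 in the Ly6Chi vehicle library of mouse 11, where the next value was 4052, and without this mouse its difference between treatments passed the threshold. Treml4 reached 1170.5 in the Ly6Chi library of mouse 19, next to 838 in the second highest Ac-6-FP library.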

How the results depend on the processing

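The 9 genes were refitted under 23 alternatives, of which 3 were chosen after seeing the data: edgeR without mouse 15, edgeR without mouse 13, and genes detected per library as a covariate without mouse 13. Ly6c2, F13a1 and Treml4 kept their call and direction between the subsets in all 23. Ccr2 was called in 22 of 23, Ly6c1 in 21 of 22 and Vcan in 20 of 23. The cause of the changes below was not tested. Higher in Ly6Chi MoMac were 2 of the 9 genes with the covariate without mouse 13, in place of 5. Within vehicle mice 2 genes were called with edgeR without mouse 15 and with the covariate without mouse 13, in place of 5, against 6 with a filter at 100 (Vcan gained) and 7 with the covariate (Vcan and Nr4a1 gained, the latter with adjusted p = 0.0364). Within Ac-6-FP mice 3 were called with a pseudocount of 0.1, with edgeR and with the covariate without mouse 13, and 2 with edgeR without mouse 15, against 6 (Ccr2 gained) with a pseudocount of 10, a filter at 100, quantile normalization, the covariate or no pairing. Leaving out 1 mouse at a time gave 4 to 5 genes in vehicle mice and 2 to 6 in Ac-6-FP mice, and 0 to 1 (Nr4a1) for treatment in Ly6Chi MoMac.

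Over all genes, 900 differed between the subsets, but 1848 with the covariate, 511 with edgeR, 539 without a trend in the prior, 392 with edgeR without mouse 15, and 262 with the covariate without mouse 13. In vehicle mice the count of 405 became 1328, 214, 204, 101 and 83 in the same order, and 202 with edgeR without mouse 13. In Ac-6-FP mice the count of 507 became 200 with edgeR, 287 without the trend, 169 with edgeR without mouse 15 and 320 with edgeR without mouse 13. Leaving out 1 mouse gave 645 to 1125 genes over all mice, 253 to 456 in vehicle mice and 286 to 635 in Ac-6-FP mice. For treatment in Ly6Chi MoMac the count of 13 became 5 without a filter, 4 with a filter at 100, 21 without the trend, and 0 with quantile normalization, the covariate (with or without mouse 13) and all 3 edgeR fits. In Ly6Clo MoMac the count of 9 became 2 with a pseudocount of 10, no filter, a filter at 100 or the covariate, 19 without the trend, and 0 with quantile normalization, all 3 edgeR fits and the covariate without mouse 13. Leaving out 1 mouse gave 0 to 133 genes in Ly6Chi and 0 to 103 in Ly6Clo MoMac. The change between subsets called 2 genes with a filter at 100, 1 with quantile normalization, 3 without the trend, and 0 to 4 without 1 mouse.

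Without pairing by mouse (no replicate block), 987 genes differed between the subsets, 461 in vehicle and 517 in Ac-6-FP mice, and 3 for the change between them, and Ccr2 was called in Ac-6-FP mice (adjusted p = 0.0322).

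Directions turned for differences that were not called. Spn between the subsets became 0.249 with the covariate without mouse 13. For treatment in Ly6Chi MoMac, the covariate with and without mouse 13 gave -0.149 and -0.155 for Ly6c1, -0.094 and -0.108 for Ly6c2, -0.195 and -0.251 for F13a1, -0.964 and -0.383 for Vcan, and -0.055 and -0.154 for Cx3cr1. Quantile normalization gave -0.063 for Ly6c1 and -0.004 for Vcan. EdgeR gave -0.58 for Vcan, -0.801 without mouse 15, and -0.096 for F13a1 without mouse 13. In Ly6Clo MoMac the covariate with and without mouse 13 gave -0.172 and -0.135 for Ccr2 and -0.136 and -0.151 for Treml4. EdgeR gave -0.035 for Ccr2, -0.104 without mouse 15 and -0.239 without mouse 13, and quantile normalization gave -1.971 for Ly6c1. Leaving out 1 mouse turned F13a1, Vcan, Treml4 and Spn in Ly6Chi and Ly6c2, Ccr2 and Treml4 in Ly6Clo MoMac, with ranges of -0.111 to 0.117, -0.81 to 1.55, -0.441 to 0.134 and -2.175 to 0.72, and of -0.001 to 0.398, -0.146 to 0.388 and -0.123 to 0.336.

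Vcan, Spn and F13a1 were listed at 0 in some libraries, where up to 3 reads cannot be told from none.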
